A study of Mus musculus with 6 samples.

Results

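The 6 germ cell genes Prm1, Prm2, Prm3, Tnp1, Tnp2 and Pramel3 were followed in mouse leukaemia cells. They were found by their symbols in the platform's gene table, which gave 10 of 35421 probe sets, or 6 of 21335 gene symbols. Prm1, Prm2, Prm3, Tnp1 and Tnp2 have 1 probe set each. The other 5 probe sets carry Pramel3 together with Gm15023, Gm7903, AV320801 and Gm5128, so they read a group of 5 genes that the array cannot separate, called the Pramel3 group here. The set was chosen by the log2(intensity + 1) values of these same 6 arrays, with the difference between the IKZF1 and empty vector groups known, so the members' values are a description and no test is given for them.

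The cells were BCR-ABL1 transformed pre-B cells from C57Bl6 mice aged 4 weeks, wild-type by genotype, a model of Philadelphia chromosome-positive acute lymphoblastic leukaemia. One group of 3 samples received the retroviral vector pMIG without an insert (empty vector 1 to 3) and the other group of 3 received pMIG with IKZF1, the gene of the transcription factor Ikaros (IKZF1 1 to 3). Cells positive for green fluorescent protein were sorted 3 days after transduction and their RNA was hybridised to Affymetrix arrays. Both groups carry BCR-ABL1 and the vector, and whether samples were separate cultures or mice is not stated in the labels. Any p-value therefore reflects only how far these samples differ, and that spread could be technical.

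Protamines are small arginine-rich proteins that replace histones in the nucleus of the maturing spermatid and pack the DNA of the sperm head. Transition proteins take the place of histones first and are then exchanged for protamines. These genes are normally silent outside the testis, where the activator CREM and its relatives drive them after meiosis. In the mouse, Prm1, Prm2, Prm3 and Tnp2 lie side by side on chromosome 16, while Tnp1 lies alone on chromosome 1. Pramel3 belongs to the PRAME family of leucine-rich repeat proteins, many of which are restricted to germ cells, and lies with its near-identical copies on the X chromosome. Human PRAME is a cancer-testis antigen that leukaemias can express.

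Transcripts of Prm1 and of the Pramel3 group were higher with IKZF1, and those of the other 4 genes were at much the same level in both groups. Prm1 had an intensity of 164, 152 and 198 in empty vector 1 to 3 and of 1048, 1073 and 875 in IKZF1 1 to 3. Every IKZF1 array lay far above every empty vector array. On the log2(intensity + 1) scale the mean level was 7.42 ± 0.19 (SD, n = 3) against 9.96 ± 0.16 (SD, n = 3), a difference of 2.54 ± 0.13 (SE), or 5.82-fold. This difference ranked 18 from the top among the 35421 probe sets. In the empty vector group Prm1 was already above the level of genes that should be silent, given by 1194 olfactory and vomeronasal receptor genes. The 95th percentile of these receptor genes was a log2 level of 6.12 without and 6.24 with IKZF1.

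The nearest relatives of Prm1 did not share this difference. Prm2, the other main sperm protamine, had an intensity of 206, 206 and 230.1 in the empty vector samples and of 194, 199 and 183 in the IKZF1 samples. All 3 IKZF1 values were slightly lower, with a log2 difference of -0.16 ± 0.07 (SE). Prm3, an acidic protein gene of the same cluster, had 99.0, 110.8 and 105 against 104, 130.4 and 103. The groups overlapped, and the log2 difference was 0.09 ± 0.11 (SE), which turned to -0.015 without IKZF1 2.

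The transition protein genes were likewise close between the groups. Tnp2 had an intensity of 81.9, 86.1 and 81.6 in the empty vector samples and of 77.5, 107.6 and 84.4 in the IKZF1 samples. Only IKZF1 2 stood above the other arrays, and the log2 difference was 0.10 ± 0.13 (SE), which turned to -0.040 without that array. Tnp1 had 38.9, 39.98 and 39.98 against 37.3, 39.9 and 39.8, a log2 difference of -0.02 ± 0.06 (SE), and of 0.0077 without IKZF1 1. Tnp1 stayed within the range of the receptor genes on all 6 arrays, while Prm2, Prm3 and Tnp2 lay above it on all 6. A level near the receptor genes can be background signal, and a small difference there may be understated.

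**Figure D1:**
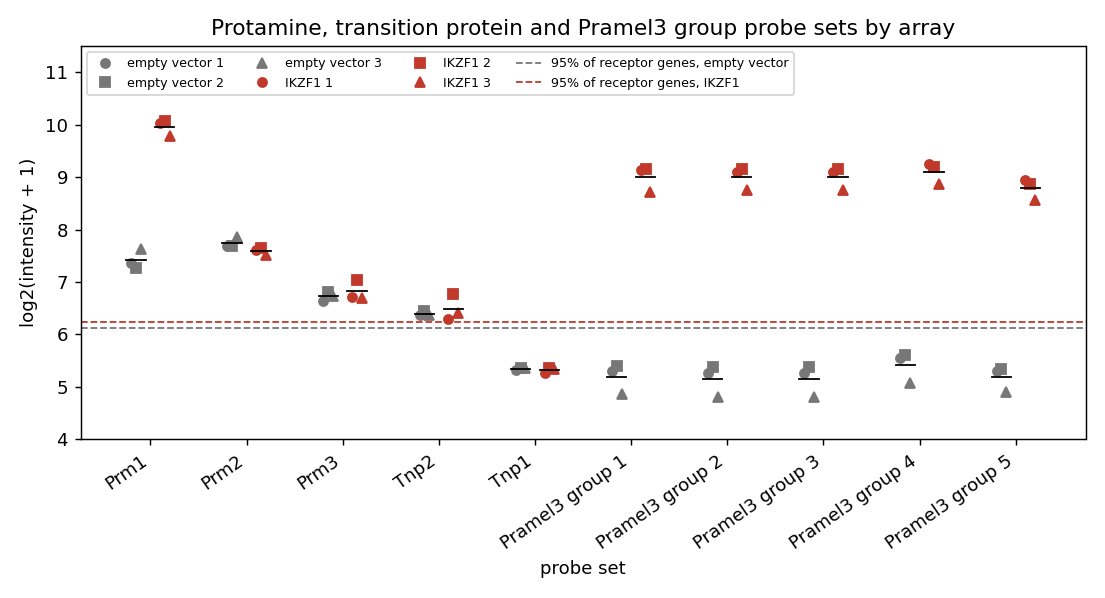
Log2(intensity + 1) of the 10 probe sets on each array, grey for empty vector and red for IKZF1, with the array number by symbol, group means as black lines and the 95th percentile of the receptor genes as dashed lines. Prm1 goes from 7.42 to 9.96 and the 5 Pramel3 group probe sets go from below the dashed lines to above them, while Prm2, Prm3, Tnp1 and Tnp2 keep similar levels.

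The promoters of the protamine and transition protein genes are shown because these genes share activators in spermatids yet differed here. The 250 bases before the annotated start were taken from RefSeq (build GRCm38.p6), which held all 10 genes. Capitals mark 3 motifs, searched on both strands. The first is TGANNTCA, a loose form of the cyclic AMP response element (CRE) to which CREM binds. The second is GGGAA, the core that Ikaros proteins recognise. The third is TATAAA, the TATA box. Prm1 (chr16:10796824-10797073, minus strand), Prm2 (chr16:10792106-10792355, minus strand), Prm3 (chr16:10790915-10791164, minus strand) and Tnp1 (chr1:73015900-73016149, minus strand) read, in the direction of transcription:
Prm1: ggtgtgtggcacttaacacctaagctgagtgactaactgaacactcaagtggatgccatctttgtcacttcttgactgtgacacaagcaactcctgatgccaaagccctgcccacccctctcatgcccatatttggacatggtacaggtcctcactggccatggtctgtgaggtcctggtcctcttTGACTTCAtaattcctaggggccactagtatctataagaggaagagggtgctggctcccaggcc
Prm2: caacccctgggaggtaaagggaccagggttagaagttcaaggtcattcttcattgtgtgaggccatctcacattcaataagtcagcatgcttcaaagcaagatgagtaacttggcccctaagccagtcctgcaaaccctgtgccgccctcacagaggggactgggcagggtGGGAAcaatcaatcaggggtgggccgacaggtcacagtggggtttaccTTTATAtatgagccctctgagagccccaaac
Prm3: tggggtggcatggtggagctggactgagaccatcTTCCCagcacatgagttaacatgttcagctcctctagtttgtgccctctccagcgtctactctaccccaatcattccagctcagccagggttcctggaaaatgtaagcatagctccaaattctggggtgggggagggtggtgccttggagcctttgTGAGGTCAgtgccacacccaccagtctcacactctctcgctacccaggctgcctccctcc
Tnp1: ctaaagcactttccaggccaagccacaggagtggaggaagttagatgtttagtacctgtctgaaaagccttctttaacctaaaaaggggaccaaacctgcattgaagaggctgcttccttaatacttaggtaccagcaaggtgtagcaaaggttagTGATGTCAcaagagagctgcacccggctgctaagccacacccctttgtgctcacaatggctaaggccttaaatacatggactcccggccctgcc
The CRE-like match of Prm1, TGACTTCA, begins 64 bases before the start. Tnp1 and Prm3, which did not share the difference of Prm1, also have such a match, 94 and 60 bases before their starts. Prm2 and Tnp2, which did not share it either, have none. The window of Tnp2 holds none of the motifs and is not printed. The CRE-like motif occurs in 11.93% of 32851 RefSeq promoter windows of this length. The window of Prm1 holds no Ikaros core, while Prm2 and Prm3 have 1 each, and 56.24% of all windows have at least 1. Prm2 has the match to the TATA box, written TTTATA, which reads TATAAA on the opposite strand and not in the direction of transcription. Either orientation is found in 12.37% of windows. Only these exact letters were searched, so other forms of a TATA box are not marked in any window. None of the 10 genes has a match to the E-box CACGTG, which is found in 6.02% of windows. The E2F-like motif GCGGGAA, which contains the Ikaros core, was also found in none of them and lies in 3.82% of windows. These matches are letters in a window and say nothing of binding.

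The Pramel3 group had the larger difference. A pair of its probe sets, 10601797 and 10601805, had identical values on every array, so 4 of the 5 give separate values. The probe set with the largest difference, 10601797, had an intensity of 37.5, 40.4 and 26.8 in the empty vector samples and of 544, 566 and 430.1 in the IKZF1 samples. The groups are far apart, and all empty vector values lie within the receptor gene range. Its log2 level was 5.15 ± 0.30 (SD, n = 3) against 8.997 ± 0.21 (SD, n = 3), a difference of 3.85 ± 0.18 (SE), or 14.4-fold.

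The remaining probe sets of the group gave nearly the same picture. Probe set 10601790 had 38.3, 41.5 and 28.1 against 564, 570.1 and 421, a log2 difference of 3.82 ± 0.18 (SE). Probe set 10601813 had 46.2, 47.9 and 32.7 against 606, 587 and 464, a difference of 3.69 ± 0.18 (SE). Probe set 10606783 had 38.4, 39.6 and 28.8 against 492, 467 and 377, a difference of 3.61 ± 0.16 (SE). Over the group the fold was thus between 12.2 and 14.4. Because the empty vector values are at background, these folds depend on the background signal: with a pseudocount of 16 in place of 1 the differences were between 3.16 and 3.38. Of 11 probe sets on the whole array that were higher by over 3 on the log2 scale, 5 belonged to this group. As the 5 probe sets carry the same 5 gene symbols, they are taken as repeated readings and not as independent genes.

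The promoters of Pramel3 (chrX:135302066-135302315, plus strand) and of its copy AV320801 (chrX:135494338-135494587, plus strand) are printed to show how alike the copies are:
Pramel3: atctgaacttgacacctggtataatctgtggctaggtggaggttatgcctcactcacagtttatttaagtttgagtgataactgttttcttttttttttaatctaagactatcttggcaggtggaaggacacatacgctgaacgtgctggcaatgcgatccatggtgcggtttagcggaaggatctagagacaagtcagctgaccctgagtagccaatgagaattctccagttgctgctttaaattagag
AV320801: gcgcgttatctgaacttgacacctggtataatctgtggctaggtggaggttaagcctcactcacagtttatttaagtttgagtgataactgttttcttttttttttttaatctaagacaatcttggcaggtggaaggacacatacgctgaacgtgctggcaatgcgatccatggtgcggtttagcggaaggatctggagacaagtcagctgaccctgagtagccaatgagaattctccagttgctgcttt
These are the least alike pair of the group, with 97.9% identical columns in an alignment of 243 columns, 3 mismatches included. The 10 pairs among the 5 genes had at least 97.9% identity over 233 to 250 columns, and Gm7903 and Gm5128 had the same 250 bases. None of the 5 windows has a match to any of the motifs, so they hold no capitals. The array values do not show which of the 5 genes gave the signal.

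Counted over all 10 probe sets, the groups did not overlap for 7, of which 6 were higher and Prm2 lower with IKZF1, where 26.7% of all probe sets had groups that did not overlap. The rule used this contrast, so nothing is read from that count. Within the empty vector group the arrays were ordered differently for Prm1 and the Pramel3 group. Empty vector 3 had the highest Prm1 value of its group and the lowest value of its group in all 5 Pramel3 group probe sets. In the IKZF1 group, IKZF1 3 had the lowest value for both. Over the 6 arrays Prm1 and the Pramel3 group correlated with r = 0.98, a description that mostly restates that both are higher in 3 arrays.

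The genes whose pattern over the 6 arrays was most like that of Prm1 were sought among 1826 genes with an SD of at least 0.3. The first was Ikzf1 itself, the transduced gene, with r = 0.999. It had an intensity of 3697, 3512 and 4045 in the empty vector samples and of 8711, 9054 and 8551 in the IKZF1 samples, a log2 difference of 1.23 ± 0.07 (SE), and the labels do not give the species of the insert. IKZF1 3 had the lowest value of its group for Ikzf1 as for Prm1, and empty vector 3 the highest of its group for both. As Ikzf1 was found by its likeness to Prm1 over these same arrays, nothing is read from that shared order. Akap12, a scaffold protein gene for protein kinase A, followed with r = 0.998, then Rubcn, a regulator of autophagy (r = 0.998), Mocs1, an enzyme of molybdenum cofactor synthesis (r = 0.997), and Trp53inp2 (r = 0.997), whose product acts in autophagy. Their log2 differences were 0.57, 0.75, 0.79 and 1.23. Nearest to the Pramel3 group were Zdhhc14, a palmitoyltransferase gene (r = 0.998), the granulocyte surface protein gene Ly6g (0.998), the glutamate transporter gene Slc17a8 (0.996), the receptor tyrosine kinase gene Ret (0.996) and Niban3 (0.995). Their log2 differences were 0.75, 4.47, 2.08, 2.90 and 1.74. These r values mostly restate that the genes, like Prm1 and the Pramel3 group, are higher in the 3 IKZF1 arrays. None of these 10 genes belongs to a germline list used here. The 4 lists of germline genes hold 162 of the 19938 tested genes, so nothing is read from this.

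**Figure D2:**
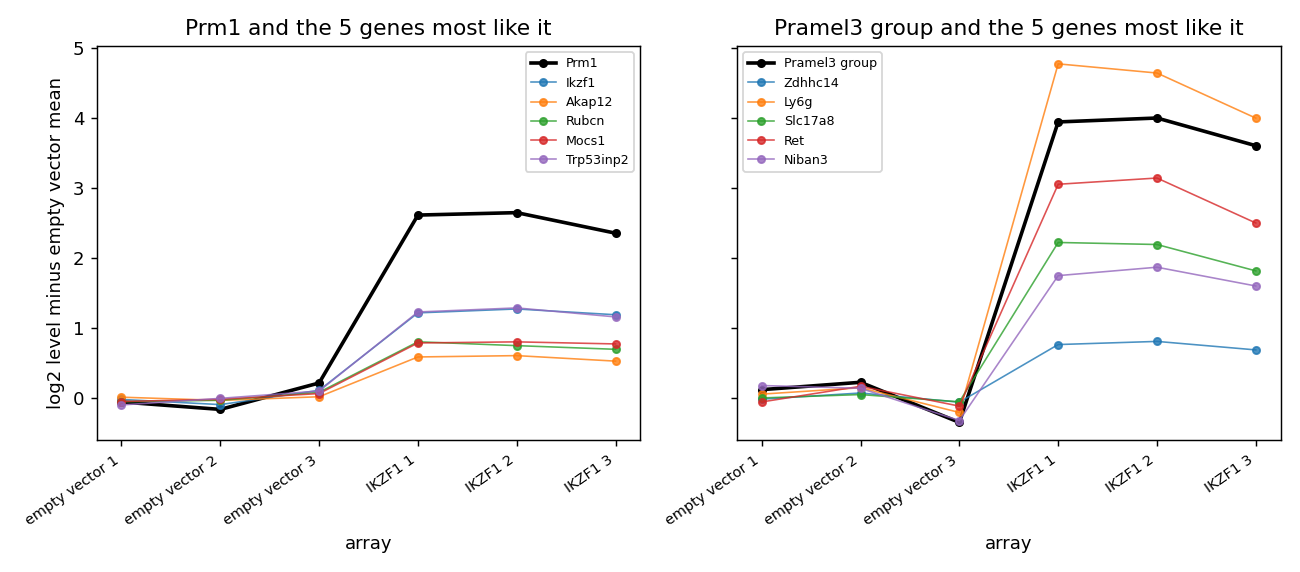
Log2 level minus the empty vector mean on each of the 6 arrays, for Prm1 (left, black line) and Pramel3 group probe set 10601797 (right, black line) with the 5 genes of highest Pearson r to each. Lines join arrays only to guide the eye. In all of them the 3 IKZF1 arrays lie above the 3 empty vector arrays, and the size of the step ranges from 0.57 for Akap12 to 4.47 for Ly6g, whose empty vector values lie within the receptor gene range, so that its size depends on the background signal.

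The neighbours of the genes on the chromosomes were compared to see whether the differences extended beyond them. The 5 nearest named protein-coding genes on each side of each locus, with those lying between the Pramel3 copies, gave 30 tested genes. In limma over 19938 genes, 1 of the 30 neighbours fell, 0 rose and 29 did not pass an adjusted p of 0.05, where 2.25% of all genes passed. An unadjusted p under 0.05 was found for 8 of the 30, or 26.7%, beside 18.4% of all genes. The count at an adjusted p under 0.05 was 4 with the replicate block, where 7.22% of all genes passed. It was 4 without empty vector 3, and 0 without empty vector 1, IKZF1 1 or IKZF1 3. The median log2 difference of the neighbours was -0.01, beside 0.03 over all genes tested. Around the protamine cluster, 0 of 10 neighbours passed in limma, with 4 at an unadjusted p under 0.05 (40%, beside 18.4% of all genes). The 4 were Socs1, Litaf, Zc3h7a (log2 difference 0.17, limma adjusted p = 0.17) and Txndc11 (0.22, adjusted p = 0.18). Of the 10, 8 had a difference above 0, beside 11812 of all 19938 genes, and their median was 0.09. Snn had the widest difference at 0.63, with groups that overlapped (adjusted p = 0.41). Socs1, which encodes an inhibitor of cytokine signalling and lies next to Tnp2, had an intensity of 826, 836 and 615 against 1039, 1196 and 1094. The IKZF1 values were all higher, with a log2 difference of 0.56 ± 0.13 (SE; limma adjusted p = 0.094, and 0.040 with replicate number as a block). Litaf, a gene of the endosomal membrane on the Prm1 side, had -0.38 (adjusted p = 0.21, and 0.032 with the block). Rmi2, the first named gene beyond Prm1, had -0.05 (adjusted p = 0.76), and Ciita, the master regulator of MHC class II genes, had 0.10 (adjusted p = 0.59), and 0.01 without IKZF1 2.

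Around Tnp1, 0 of 10 neighbours passed in limma, with 1 at an unadjusted p under 0.05 (10%, beside 18.4% of all genes). That gene was Tns1, which encodes a protein of focal adhesions, at 0.42 (limma adjusted p = 0.27). It was at 0.23 without IKZF1 2 and at 0.17 as the mean of its probe sets. The ribosomal protein gene Rpl37a on the other side had -0.03 (adjusted p = 0.79). Around the Pramel3 group, 1 of 10 fell and 9 did not pass. A limma unadjusted p under 0.05 was found for 3 of the 10 (30%, beside 18.4% of all genes). Zmat1, a zinc finger gene and the nearest named gene before the group, had an intensity of 164, 172 and 154 against 98.0, 105 and 95.3, a log2 difference of -0.71 ± 0.07 (SE; adjusted p = 0.0104). It moved against the direction of the Pramel3 group. The call was lost without empty vector 1, IKZF1 1 or IKZF1 3 (adjusted p = 0.089, 0.078 and 0.057). Armcx3, whose product sits on mitochondria, had -0.39 (adjusted p = 0.0504, and 0.044 with the block). Prame, the gene that gives the family its name and a neighbour of the group, had 32.8, 34.7 and 34.7 against 38.6, 37.9 and 37.4, all within the receptor gene range (log2 difference 0.15, adjusted p = 0.22).

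**Figure D3:**
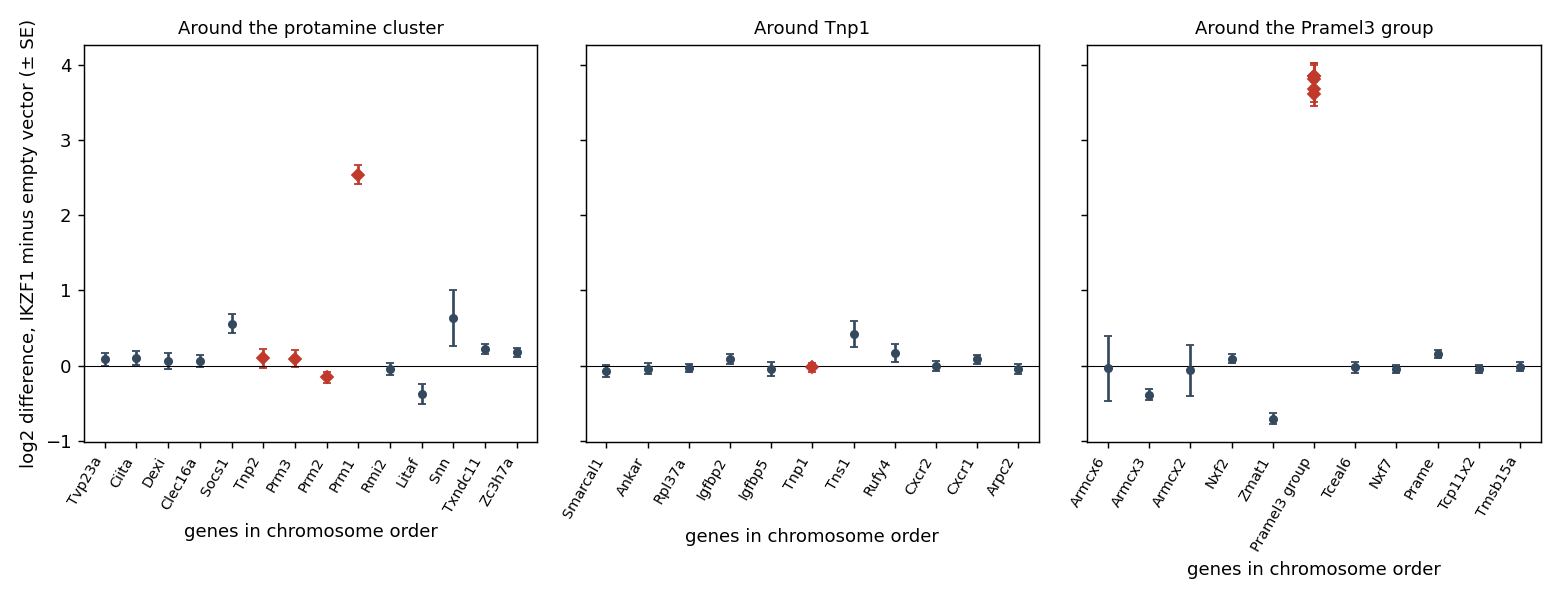
Log2 difference (IKZF1 minus empty vector, bars show SE, n = 3 arrays per group) of the members (red diamonds) and of their neighbours (dark circles) in chromosome order, with spacing not to scale. Prm1 at 2.54 and the Pramel3 group between 3.61 and 3.85 stand above all neighbours, which lie between -0.71 and 0.63.

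Other germline genes were counted to see whether the differences of Prm1 and the Pramel3 group were part of a wider germ cell programme in the data. Of 162 tested genes in 4 lists, 1 rose, 1 fell and 160 did not pass, and their median log2 difference was 0.04, beside 0.03 over all genes. That is 2 of 162 genes where 2.25% of all genes passed. In the empty vector group 45 of the 162 (27.8%) were above the receptor gene range, against 63.7% of all genes. Adding the replicate block gave 2 higher, Mybl1 and Mei1, and 1 lower, Syce2, where 7.22% of all genes passed with that block.

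Of 60 spermatid genes, which serve the acrosome, the sperm tail and sperm metabolism, 0 passed in limma, with 4 at an unadjusted p under 0.05, beside 18.4% of all genes. Acrbp, which encodes a proacrosin binding protein, had an intensity of 170.2, 178 and 173 against 219, 199 and 214. All IKZF1 values were higher, with a log2 difference of 0.27 ± 0.06 (SE; adjusted p = 0.085). Acrv1 (0.22), Spem1 (0.24) and Sun5 (0.15), with roles in the acrosome, the sperm neck and the head to tail coupling, had adjusted p of 0.14, 0.19 and 0.23, and lay within the receptor gene range. With a pseudocount of 16, Acrv1 was at 0.14. Dkkl1, which encodes an acrosomal protein, is named after its value was seen, as the gene of the list with the widest difference. It had 324, 692 and 107 against 99.4, 124 and 88.3, so that the groups overlapped (log2 difference -1.48, adjusted p = 0.27, and 0.016 without empty vector 3). Without empty vector 2 the difference was -0.85 (adjusted p = 0.36).

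Of 59 meiotic and premeiotic genes, 1 rose, 1 fell and 57 did not pass, where 2.25% of all genes passed. A limma unadjusted p under 0.05 was found for 8 of the 59, or 13.6% beside 18.4% of all genes. Mybl1, the transcription factor A-MYB that drives meiotic genes in spermatocytes and is also known from germinal centre B cells, had an intensity of 674, 648 and 889 against 1453, 1212 and 1386. All IKZF1 values were higher, with a log2 difference of 0.88 ± 0.14 (SE; adjusted p = 0.034). Syce2, a component of the synaptonemal complex, had 1709, 1567 and 1954 against 1160, 1089 and 1229, all lower, with a difference of -0.58 ± 0.10 (SE; adjusted p = 0.039). Both calls were lost when any of empty vector 1, empty vector 2, IKZF1 1, IKZF1 2 or IKZF1 3 was left out, with adjusted p from 0.081 to 0.17 for Mybl1 and from 0.055 to 0.18 for Syce2. Mei4, needed for meiotic DNA breaks, had -0.52 (adjusted p = 0.11, and 0.0199 without empty vector 3). Mei1, which acts in the same step, had 0.40 (adjusted p = 0.13, and 0.028 with the block).

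Among the 17 other genes of the Prame family (symbols starting with Prame or Oog) with a probe set of their own, 0 passed in limma. Of these genes 1 had an unadjusted p under 0.05, or 5.9% beside 18.4% of all genes. Their log2 differences ran from -0.23 to 0.15, and 1 of the 17, Pramel12, was above the receptor gene range in the empty vector group, with log2 levels of 8.76 and 8.80. Of 26 genes of the Xlr, Mage and Rhox families, which are X-linked germline families for the most part, 0 passed in limma. Of the 26, 1 had an unadjusted p under 0.05, or 3.8% beside 18.4% of all genes. It was Rhox6 at 0.37 (limma adjusted p = 0.20), or 0.24 without IKZF1 2.

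The regulators of germline genes were followed by the same counts. Of 20 activators and cofactors, 1 rose, Mybl1, which is also in the meiotic list, and 19 did not pass, where 2.25% of all genes passed. A limma unadjusted p under 0.05 was found for 4 of the 20, or 20% beside 18.4% of all genes. Ybx1, a Y-box protein that binds DNA and RNA, had 0.40 ± 0.08 (SE; adjusted p = 0.058, and 0.029 with the block). Ybx1 has several probe sets, and their mean gave 0.27 (adjusted p = 0.13). Ybx3, the Y-box protein also known as MSY4, had -0.26 (adjusted p = 0.081), and Ybx2, or MSY2, which stores protamine transcripts in spermatids, had 0.19 (adjusted p = 0.24). Of 32 genes that repress germline genes in somatic cells, among them DNA methyltransferases and members of the PRC1.6 complex, all were above the receptor gene range. Of these 32, 0 passed in limma, with 4 at an unadjusted p under 0.05, or 12.5% beside 18.4% of all genes. The 4 were Rcor1 (0.22), a corepressor of the demethylase LSD1, the heterochromatin protein gene Cbx3 (-0.40), the PRC1.6 subunit gene Pcgf6 (-0.24) and the Polycomb gene Eed (-0.27), with adjusted p of 0.14, 0.17, 0.23 and 0.25. Cbx3 passed with the block (adjusted p = 0.028). Eed was at -0.16 without IKZF1 2 and at -0.13 as the mean of its probe sets.

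**Figure D4:**
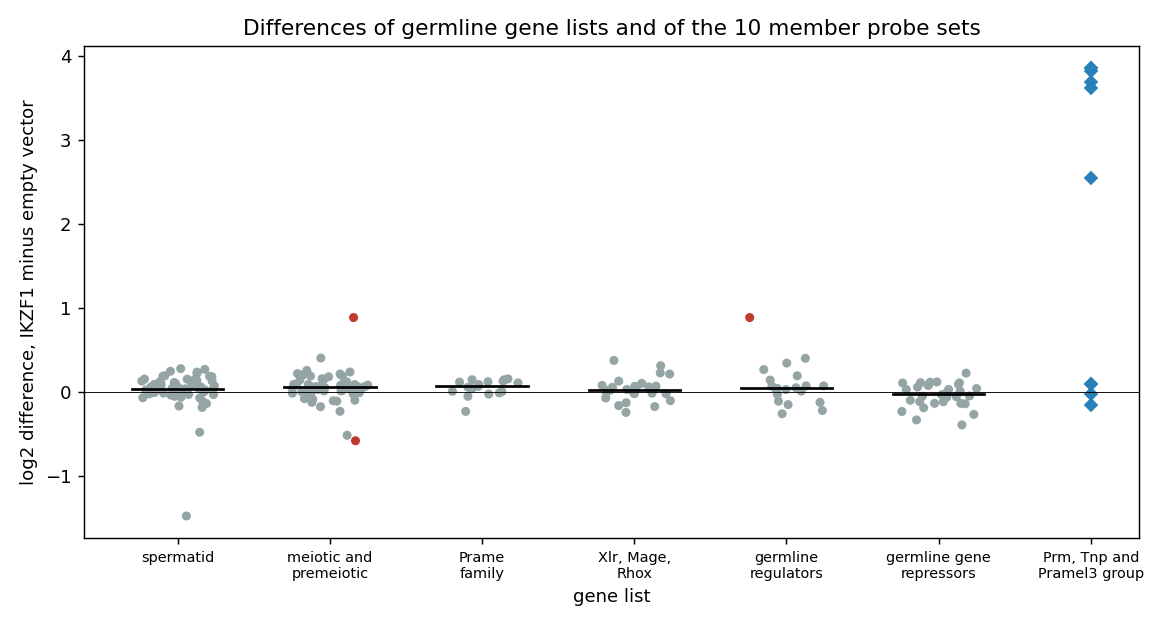
Log2 difference (IKZF1 minus empty vector) of every tested gene in 6 germline lists, with red points for an adjusted p under 0.05 and black lines for medians, beside the 10 probe sets of Prm1, Prm2, Prm3, Tnp1, Tnp2 and the Pramel3 group (blue diamonds). Red points are Mybl1, in both lists that hold it, and Syce2, and 6 of the blue diamonds lie above 2.5.

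Of 14 measured B-lineage markers, all had an empty vector mean above the receptor gene range, against 63.7% of all genes. Pax5 and Cd79a had mean log2 levels of 12.1 and 13.3, while Rag2 and Ighm were dimmer at 7.13 and 7.65. On empty vector 2 alone, Rag2 was within that range at an intensity of 45.1. Rag1, Rag2, Dntt and Ighm varied most within the groups, Rag2 with an SD of 1.72 in the empty vector group. Of 16 markers of somatic cells of the testis 0 passed in limma, with 0 at an unadjusted p under 0.05, beside 2.25% and 18.4% of all genes. An unadjusted limma p under 0.05 was found for 4 of 14 B-lineage markers (28.6%) and 2 of 12 T and NK markers (16.7%). It was found for 3 of 12 stromal (25%), 1 of 5 erythroid (20%) and 2 of 16 myeloid markers (12.5%). The summed intensity of the testis markers was 1055 to 1110 in the empty vector group and 1105 to 1199 in the IKZF1 group. The summed level of T and NK cell markers was 688 to 734 against 748 to 865, that of stromal markers 1855 to 2255 against 2476 to 2619, that of erythroid markers 340.0 to 347 against 334 to 389.9, and that of myeloid markers 1096 to 1132 against 1767 to 2393. The T and NK, stromal and myeloid sums were thus higher in every IKZF1 sample, and the testis and erythroid sums overlapped. In the empty vector group, 3 of 12 T and NK and 5 of 12 stromal markers had means above the receptor gene range. So had 4 of 16 myeloid, 8 of 16 testis and 3 of 5 erythroid markers. The rest lay within that range, where a level can be background signal. The 95th percentile of the receptor genes was itself an intensity of 68.6 without and 74.6 with IKZF1. Of 16 myeloid markers, Ly6g alone passed, with an intensity of 49.8, 53.1 and 41.4 against 1336, 1220 and 780. Without Ly6g, a choice made after its values were seen, the myeloid sums overlapped, at 1043 to 1091 against 986 to 1092. Most of the stromal gap came from Pecam1, an adhesion molecule gene of endothelial and blood cells, with 1382, 1461 and 1107 against 1687, 1658 and 1681. Without it, likewise chosen afterwards, the stromal sums were 716 to 794 against 789 to 962 and overlapped. With the replicate block, limma gave the pre-B cell receptor gene Vpreb2 (log2 difference -0.38) an adjusted p of 0.030 in place of 0.11, and the collagen gene Col1a1 (0.30) 0.0499 in place of 0.28. The part of these cell types in the differences of Prm1 and the Pramel3 group was not tested. In bulk RNA, more cells that hold a transcript and more of it per cell cannot be told apart.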

How the data were processed

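Gene expression was measured on 6 Affymetrix arrays, 3 per group, grouped by the transduction in the labels. The deposited values are linear intensities per probe set (11.1 to 23523, array medians 100.2 to 107), normalized by RMA per the submitters' processing notes, and its version is not given in the sources used here. From them log2(intensity + 1) was computed. Quantile normalization, a part of RMA, can reduce shifts common to most genes, and background left in dim probe sets understates their fold changes. The number of arrays limits the precision.

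Of 35421 probe sets, the platform's gene table gives 1 symbol for 21789, several for 1621 and none for 12011. Of the probe sets with 1 symbol, 21698 were matched by gene number to RefSeq, whose symbol was then used. For 999 genes with several probe sets the brightest was used, which left 19938 genes. The test was limma 3.58.1, run in R 4.3.3 with lmFit and eBayes (2-sided, group only, Benjamini-Hochberg adjustment over all genes, threshold 0.05). Differences and SEs of the 10 probe sets come from the same model over all probe sets. The test was checked on simulated data. Lists gave 319 of 335 entries a tested gene, and named genes were the members, Ikzf1, up to 4 of each list (those past the threshold by size, then the smallest p), marker genes, neighbours and the 5 genes most like Prm1 and the Pramel3 group by Pearson r. Members and lists were chosen with earlier results of these data known. Promoters came from the RefSeq table and were matched by symbol. The Pramel3 promoters were aligned globally with free end gaps.

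Titles give both groups the replicate numbers 1 to 3. Deviations from group means of same-numbered arrays correlated with r = 0.24, 0.60 and 0.66, all over 0.1, so results of a model with the replicate block are printed where they change a call. Empty vector 1 with IKZF1 2 had r = 0.11 too, so the pairing is not settled. The alternatives were that block, each array left out, pseudocounts of 0 and 16, quantile normalization, median centring, the mean of probe sets, brighter genes only and an intensity trend.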

Additional observations from a re-analysis of the deposited data

How the results depend on the processing

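The log2 differences of Prm1, Prm2, Prm3, Tnp1 and Tnp2 moved by less than the larger of the groups' SDs under each setting run for them: the replicate block, each array left out, both other pseudocounts, quantile normalization and median centring. Near 0, Prm3 and Tnp2 turned to -0.015 and -0.040 without IKZF1 2, and Tnp1 to 0.0077 without IKZF1 1. Those of the Pramel3 group did so too, except with a pseudocount of 16, which gave 3.36, 3.38, 3.38, 3.29 and 3.16, and they kept their direction. The counts of called genes were less stable. Over all 19938 genes, 448 passed (2.25%), 1439 with the replicate block (7.22%), and between 24 (without IKZF1 1) and 947 (without empty vector 3) with an array left out. Over all genes 558 passed with a pseudocount of 16, 547 after quantile normalization, 402 after median centring and 407 with an intensity trend. Among brighter genes only, 469 passed. The list counts that follow are small, so nothing is read from them. With an array left out, 0 to 1 spermatid genes, 0 to 3 meiotic and premeiotic genes, 0 to 3 regulators and 0 to 4 neighbours passed. Of the 20 regulators, 3 passed with the replicate block, 2 with a pseudocount of 16, 2 after quantile normalization and 3 with an intensity trend. Of the 32 repressors, 1 passed with the replicate block. Of the 30 neighbours, 4 passed with the replicate block, 2 with a pseudocount of 16, 2 after median centring and 2 among brighter genes. The Prame, Xlr, Mage and Rhox counts were 0 under each setting run. Tnp1 and the Pramel3 group in empty vector cells are limited by their signal, which lies within the background range.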
